A study of Mus musculus with 2 samples.

Results

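The enzymes that make hydrogen sulfide and dispose of it were compared between a wild-type sample, CSE-WT(HFD+), and a CSE knockout sample, CSE-KO(HFD+). Both were labelled as beta cells, and both came from C57BL/6J mice that ate a high-fat diet and were 6 months old, so the labels differ in genotype alone. How the allele was made, how many animals gave each sample and how the cells were isolated are not given in the sources used here. Each sample was hybridised to 1 one-colour array, so every value below describes a pair of arrays, has no replicate error, and was not tested. Members were the gene probes named Cth, Cbs, Mpst, Ccbl1, Sqrdl, Ethe1, Tst, Suox, Cdo1 or Csad in the array files. All 10 genes were found, with 13 probes, among 34796 gene names on the array. Sqrdl and Ccbl1 are older symbols, and their accessions belong to genes now called Sqor and Kyat1 in RefSeq.

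Hydrogen sulfide is a small diffusible molecule that cells make mainly from cysteine and homocysteine. Cystathionine beta-synthase (Cbs) and cystathionine gamma-lyase (CSE, encoded by Cth) carry out the successive steps of transsulfuration, and each can also release sulfide, while 3-mercaptopyruvate sulfurtransferase (Mpst) gives a persulfide from which sulfide is freed. Mitochondria then oxidise sulfide through a quinone reductase (Sqrdl), a persulfide dioxygenase (Ethe1), the sulfurtransferase rhodanese (Tst) and sulfite oxidase (Suox). Cysteine can instead be drawn off toward taurine by Cdo1 and Csad. In beta cells, sulfide is known to open ATP-sensitive potassium channels and to restrain insulin secretion.

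Each gene is read by 60-base probes, and the stretches below show which part of the transcript a value stands for. The first 30 bases are given for the deleted gene, for Cbs, which differed most, and for the pair of Tst probes, which gave unequal differences. Coordinates follow the array's annotation (mouse mm9), and the transcript positions count along the RefSeq accession that the array names. These 3 genes lie on the minus strand. Whether a probe lies in an exon's coding part or in an untranslated region was not determined, as no genome of that build was used here.
Cth, positions 1134 to 1193, chr3:157560183-157560242: atcaatgacacactgatacgactttctgtg
Cth, positions 1286 to 1345, chr3:157557667-157557726: ccaaatcttcggaataactggacagatcat
Cbs, positions 2354 to 2413, chr17:31749593-31749652: gcacccactttctgtctcaatggatctccc
Tst, positions 810 to 869, chr15:78230212-78230271: acctttgtggcaaacccgatgtggctgttt
Tst, positions 964 to 1023, chr15:78230058-78230117: cttcagggaggttggtgtgacctgctgtag

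A second set is shown for the end-of-transcript signal that its probes carry. Of the 13 probes, 4 held AATAAA, the usual polyadenylation signal, which was searched in the printed orientation only and found in 10.1% of all 55681 gene probes. The last 30 bases of these probes are given with the hexamer in capitals. Suox and Ccbl1 lie on the minus strand, and Mpst and Sqrdl on the plus strand.
Suox, positions 2265 to 2324, chr10:128106967-128107026: gagtgctacttttaaaactattccAATAAA
Ccbl1, positions 1847 to 1906, chr2:30040668-30040727: cctcacagtgttgctactgttcctAATAAA
Mpst, positions 1353 to 1412, chr15:78244373-78244432: gcttgtttcattgttgggaAATAAAacatc
Sqrdl, positions 1917 to 1976, chr2:122635222-122635281: tccaagtgaaatAATAAAactctattttct
The remaining probes were a further one for Ccbl1 (positions 1727 to 1786), and those of Ethe1 (positions 1188 to 1247, chr7:25393395-25393454, plus strand), Csad (positions 2065 to 2124, chr15:102007569-102007628, minus strand) and Cdo1. The G and C content of the 13 probes ran from 35% for Sqrdl to 55% for the Tst probe at position 810. None of the 13 shared a run of 20 bases with an array probe of another gene, Tst and its relative Mpst included.

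Intensities below are the scanner program's processed signal, in arbitrary units. Differences are CSE-KO minus CSE-WT in log2 units after each array was divided by the 75th percentile of its gene probes, which was 519 units for CSE-WT and 540 units for CSE-KO. A probe counted as measured when the scanner program flagged it well above background on both arrays. Each difference is set against a spot SD, the scatter expected from printing and scanning alone, taken from 396 probes printed 10 times on each array. The scanner program also attaches its own error to each spot, close to 10% of the signal for well-lit spots. Neither error covers animals or preparations. A brightness depends on the probe as well as on the transcript, so values are compared between arrays for the same probe and never between genes. The sums given for marker lists are the exception. They add intensities over genes without the 75th-percentile scaling, so the brightest probes weigh most in them.

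Of the 10 genes, 9 were measured on both arrays, through 11 probes, and none of these 9 differed by 2-fold or more. Over all 22160 measured genes 1.6% did so. None reached 1.5-fold either, where 5.6% of all measured genes did. Only Cbs differed by more than 3 times the spot SD, 1 of 9 genes against 15.4% of all measured genes. Cbs was higher in CSE-KO, 6 genes (Csad, Mpst, Sqrdl, Suox, Ethe1 and Cdo1) had lower values there by at most 0.16, and Ccbl1 and Tst had slightly higher ones. Values were thus higher in CSE-KO for 3 of 9 genes, and for 48.7% of all measured genes. The median difference of the 9 was -0.08, against -0.01 for all measured genes. Their median absolute difference was 0.13, the same to that digit as the 0.13 of all measured genes.

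**Figure D1:**
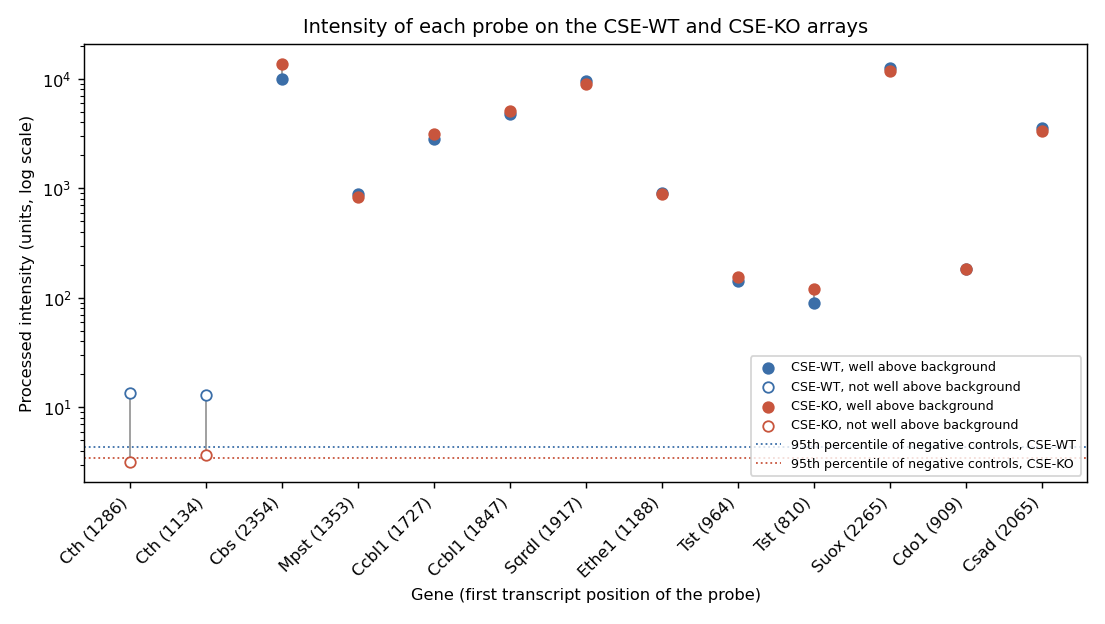
Processed intensity (log axis) of each of the 13 probes on the CSE-WT array (blue) and the CSE-KO array (red), with open points for probes not well above background and dotted lines at the 95th percentile of the negative controls. The filled pairs nearly coincide, and Cbs and the Tst probe at position 810 stand slightly apart. The Cth probes are the dimmest. They lie above the control line on the CSE-WT array and close to it on the CSE-KO array.

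Cth, the gene of CSE itself, was faint on both arrays. Its probe at position 1134 gave 12.8 units in CSE-WT and 3.68 in CSE-KO, and its probe at position 1286 gave 13.5 and 3.15. Neither was well above background on either array, so neither a fold nor a bound is given for Cth. Both values were higher on the CSE-WT array.

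The raw readings behind these values were close to the local surroundings. Before any correction the probe at position 1134 read 81.3 units over 44 pixels on the CSE-WT array, where the local background was 66, and 69.3 units over 47 pixels on the CSE-KO array, where it was 61.5. The probe at position 1286 read 84.4 units against 70 in CSE-WT and 69.8 against 68 in CSE-KO. The raw signal was thus 1.23 and 1.21 times its local background in the wild type, and 1.13 and 1.03 times in the knockout. The 95th percentile of the raw negative-control signal was 73.8 units in CSE-WT and 71.1 in CSE-KO. Both probes read above it in CSE-WT and below it in CSE-KO.

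The files also carry a more lenient flag, for a spot positive and significant against background. Both Cth probes bore it on the CSE-WT array. On the CSE-KO array the probe at position 1134 bore it, and the probe at position 1286 did not and held a surrogate value that the program substitutes for a signal too low to use. The flag was set for 74.1% and 76.4% of gene spots on the CSE-WT and CSE-KO arrays, and for 14 and 11 of their 308 negative controls. The neighbourhoods of these spots were even, with the 8 surrounding spots differing by a median of -0.07 between the arrays at either probe. The probes lie 92 bases apart on the transcript, and the sources used here do not say which exons the knockout lacks, so the probes are no firm check of the genotype.

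Cbs, which joins serine and homocysteine to cystathionine and can release sulfide from cysteine, was higher in CSE-KO. Its probe gave 9987 units in CSE-WT and 13617 in CSE-KO, a 1.31-fold higher scaled value. The difference of 0.39 was 7.02 times the spot SD and 1.92 times the scanner program's own error of the difference. Among all measured genes 12.2% differed by at least this much in either direction, and 3.68% did among those brighter than the median level. In the authors' deposited table the same probe stood at 10106 and 13419.

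The surroundings of the Cbs spot moved the same way. Its raw signal was 10137 units in CSE-WT and 14332 in CSE-KO. The 8 spots around it had a median difference of 0.34 relative to the whole array, and 5.21% of gene probes had a surrounding difference as large in either direction. This was under the 0.6 used here to call a local patch of the slide. The part that the neighbourhood has in the Cbs difference was not tested. Cbs has a single probe, so no second probe bears on the value.

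Mpst, which moves sulfur from 3-mercaptopyruvate to form a persulfide, gave 881 units in CSE-WT and 825 in CSE-KO. The difference of -0.15 was 1.95 spot SDs, a value within the spread of the repeated spots at 3 SDs. A difference as large was seen in 44.5% of measured genes.

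Ccbl1 encodes a cysteine conjugate beta-lyase that also acts as a kynurenine and glutamine aminotransferase. Its probe at position 1847 gave 4789 units in CSE-WT and 5090 in CSE-KO, a difference of 0.03, and its probe at position 1727 gave 2831 and 3103, a difference of 0.08. Both probes lay within 2 spot SDs of 0, at 0.56 and 1.27. They differed from each other by 0.04, where the 4454 genes with exactly 2 measured probes had a median gap of 0.15. With normexp background correction of the raw signals the gene's difference was -0.04, so its direction was not settled.

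**Figure D2:**
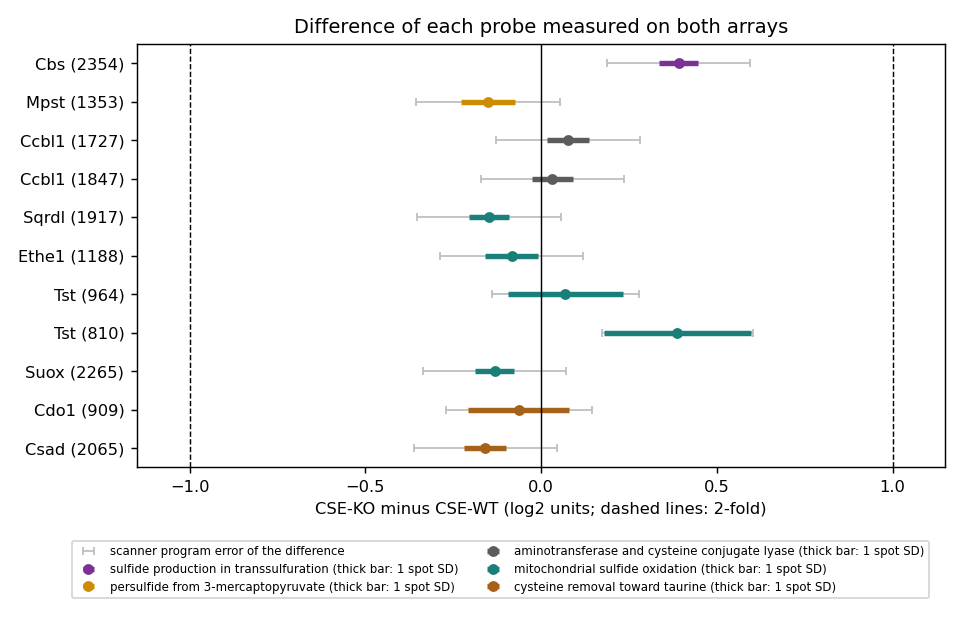
CSE-KO minus CSE-WT (log2 units) for the 11 probes measured on both arrays, coloured by role, with thick bars of 1 spot SD and thin bars of the scanner program's error. All 11 lie inside the dashed 2-fold lines, and Cbs is the one probe whose distance from 0 exceeds 3 spot SDs.

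Sqrdl, the sulfide:quinone oxidoreductase that takes the first step of mitochondrial sulfide oxidation and passes electrons to coenzyme Q, gave 9588 units in CSE-WT and 8989 in CSE-KO. The scaled value was 1.11-fold lower, a difference of -0.15 or 2.65 spot SDs. The raw signals were nearly equal, at 9069 and 8998 units. The program divides each spot by a fitted surface factor, which was 0.94 for CSE-WT and 0.99 for CSE-KO at this spot, and normexp correction of the raw signals, which uses no such factor, gave -0.06.

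Suox, which oxidises sulfite to sulfate with a molybdenum cofactor, gave 12434 units in CSE-WT and 11793 in CSE-KO, a difference of -0.13 or 2.37 spot SDs. Its raw signals were 12671 and 12713 units, with surface factors of 1.01 and 1.07. From the raw signals with normexp correction the difference was -0.04.

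Ethe1, the persulfide dioxygenase that yields sulfite and is lost in ethylmalonic encephalopathy, gave 903 units in CSE-WT and 885 in CSE-KO. The difference was -0.08, beside a spot SD of 0.08. Among measured genes 65.6% differed by at least as much.

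Tst, the rhodanese that transfers persulfide sulfur to sulfite to form thiosulfate, was read by a pair of probes 94 bases apart. The probe at position 964 gave 142 units in CSE-WT and 155 in CSE-KO, a difference of 0.07. The probe at position 810 gave 89.0 and 121, a difference of 0.39 or 1.31-fold. Both probes had the higher value in CSE-KO, by unequal amounts. Because these spots were dim, the spot SDs of the differences were 0.16 and 0.21, and the values were 0.42 and 1.85 times those. The gap of 0.32 between the probes was reached or passed by 22.7% of genes with 2 measured probes. Taking the mean of the probes moved the gene's difference to 0.23, and normexp correction with 75th-percentile scaling moved it to -0.0031, so its size and direction were not settled.

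Tst and Mpst are next to each other on chromosome 15, with 0 annotated genes between them in RefSeq and their nearest probes 14.1 kb apart on opposite strands. Mpst had the lower value in CSE-KO and Tst the higher, each within 2 spot SDs.

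Both enzymes that draw cysteine toward taurine had lower values in CSE-KO, by unequal amounts. Cdo1, the dioxygenase that turns cysteine into cysteine sulfinate, gave 185 units in CSE-WT and 184 in CSE-KO, a difference of -0.06 or 0.44 spot SDs. Csad, which decarboxylates the sulfinate to hypotaurine, gave 3537 and 3293 units, a 1.12-fold lower scaled value and a difference of -0.16, the lowest of the 9 measured enzymes. This was 2.67 spot SDs and 0.78 times the scanner program's error, and the 8 spots around Csad had a median difference of -0.24 relative to the whole array, whose part in the value was not tested.

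**Figure D3:**
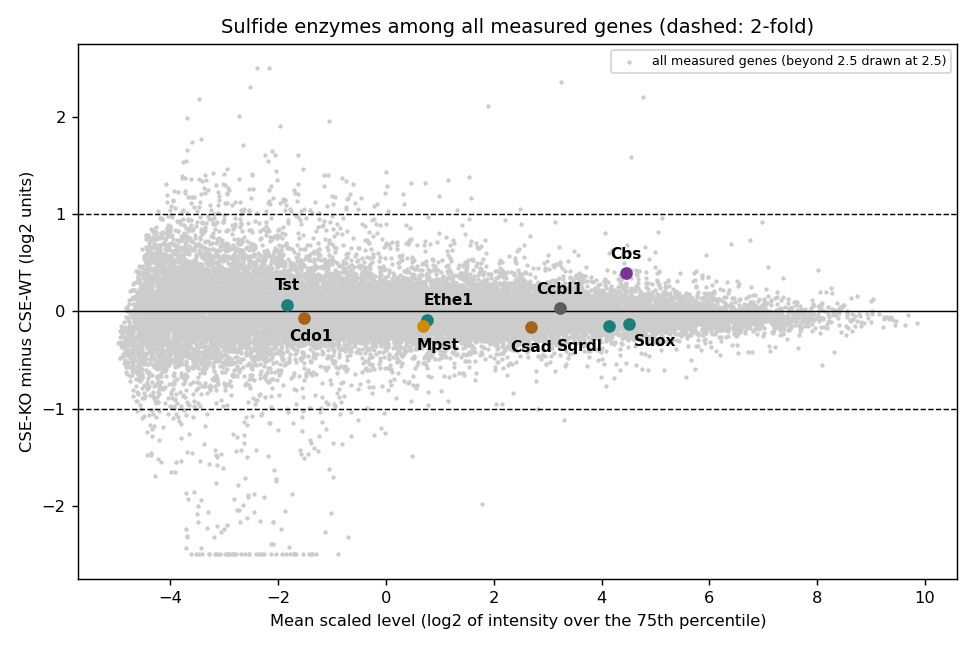
CSE-KO minus CSE-WT against the mean scaled level for all 22160 measured genes (grey) and the 9 measured sulfide enzymes (coloured). Cbs, at 0.39, lies above most genes of its brightness, and the other 8 lie in the dense band around 0.

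Genes that feed, neighbour or serve these enzymes were counted from 6 lists. Of 77 listed genes 66 were measured, 35 with higher and 31 with lower values in CSE-KO, and their median difference was 0.01. None reached 2-fold in either direction, where the shares over all measured genes were 0.718% higher and 0.884% lower. Past 3 spot SDs, 8 were higher and 4 lower, or 12 of 66, beside 7.03% higher and 8.37% lower over all measured genes.

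In the methionine cycle, which supplies homocysteine to Cbs, 9 of 13 measured genes had higher values, beside 48.7% of all measured genes. The list median was 0.12, the value of Mat2a, whose other probe gave -0.18. Mat2b and Mtrr, counted among the 9, differed by 0.0038 and 0.0062. The methyltransferase gene Gnmt (508 units in CSE-WT and 683 in CSE-KO) was 1.29-fold higher at 4.47 spot SDs, and Mat1a, at 0.27, also passed 3 spot SDs. The S-adenosylhomocysteine hydrolase gene Ahcy was lower, from 1157 to 856 units. Its difference was -0.49, and its 3 probes lay between -0.49 and -0.42. Bhmt2, a homocysteine methyltransferase gene, was well above background on the CSE-WT array only, at 75.5 units against 3.29, and at least 5.42-fold lower in CSE-KO. Its spot lay in a local patch, where the surrounding spots had a median difference of -1.35, and the part of that patch in the value was not tested.

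Among genes of cystine uptake and of glutathione synthesis and breakdown, which supply or use cysteine, 8 of 14 had higher values. The share over all measured genes was 48.7%. The glutathione-degrading enzyme gene Chac1 gave 7616 units in CSE-WT and 12239 in CSE-KO, 1.55-fold higher at 11.2 spot SDs, and Ggt7 was higher by 0.23. The lowest was Gclm, the modifier subunit of the enzyme that starts glutathione synthesis, at -0.24 and within 3 spot SDs. Slc7a11, the cystine carrier of the cystine-glutamate exchanger, stayed below that flag on both arrays, and its partner Slc3a2 differed by 0.14. The other genes of cysteine sulfinate, hypotaurine and taurine metabolism showed Got1, an aminotransferase of aspartate and cysteine sulfinate, lower (5236 to 4288 units, difference -0.34, 5.98 spot SDs). Fmo1 had the highest value, 0.17, and the taurine carrier Slc6a6 differed by -0.05.

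Persulfide carriers, rhodanese relatives and cysteinyl-tRNA synthetases had a median of 0.01 over 12 measured genes. Tstd1, a small rhodanese-domain protein gene, was highest at 0.36, or 2.66 spot SDs, and the glutaredoxin gene Glrx was lowest at -0.29. Cars2, the mitochondrial cysteinyl-tRNA synthetase gene, was higher by 0.28 and past 3 spot SDs, while the cytosolic Cars differed by -0.0047. Molybdenum cofactor genes and molybdoenzymes, the relatives of Suox, had a median of 0.02 over 8 genes, with the aldehyde oxidase gene Aox1 higher at 0.39 and Xdh at -0.33 but within 3 spot SDs. The last list held genes that make or handle coenzyme Q, the electron acceptor of Sqrdl, or that pass electrons to it. Of its 14 measured genes 10 had lower values and 4 higher, beside 48.7% higher over all measured genes. The list median was -0.04. Coq10b was lower at -0.26, and Adck3 was 1.41-fold higher by the probe used here while its other probe gave -0.12.

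**Figure D4:**
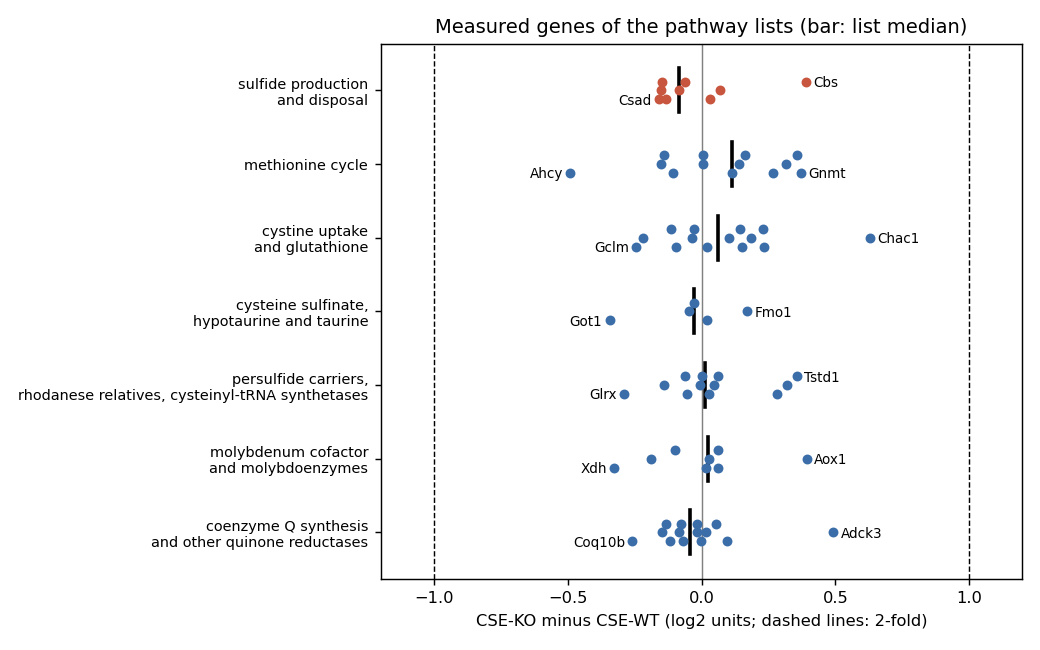
CSE-KO minus CSE-WT (log2 units) of the measured genes of each pathway list, with the sulfide enzymes in red on the top line, list medians as black bars, and the highest and lowest genes named. No gene passes the dashed 2-fold lines, and list medians lie between -0.08 and 0.12.

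The labelled cell type was checked against markers. All 10 beta-cell markers were measured, with differences from -0.23 (Slc30a8) to 0.11 (Mafa), and their summed intensity was 1451760 units in CSE-WT and 1399440 in CSE-KO. RNA of other cells was also present. All 10 markers of other islet endocrine cells were measured, from Irx1 at -0.66 to Ghrl at 1.33, with sums of 1046810 and 965738 units, and all 10 acinar markers, from Amy2a5 at -0.42 to Ctrb1 at 0.46, with sums of 556079 and 552253. In such a mixture, fewer cells of a type and less RNA per cell cannot be told apart, and the cell that carries a given sulfide enzyme is not known. Of 8 hepatocyte markers 6 were measured, from Alb at -0.73 (60.4 and 37.8 units) to Fga at 0.21 (37.8 and 45.3 units). Serpina1a gave 289.6 units in CSE-WT and 248.5 in CSE-KO. The list sums were 210922 and 185690 units, but Ttr alone gave 210453 and 185289 of these. The sums thus say little about the other markers of this list. The Ttr spot also lay in a local patch. The defining markers Apoa1 and Apoh were not well above background on either array. The part of hepatocyte RNA in the sulfide enzyme values was not tested.

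Several marker lists differed between the arrays alongside Cbs. Of all measured genes 48.7% had higher values in CSE-KO. Macrophage markers were higher in CSE-KO in 7 of 8 genes, from Lyz2 at -0.41 to Aif1 at 0.53, with sums of 24740 and 32512 units. Itgam alone gave 12714 and 17478 of those units, and its 3 probes had differences between 0.08 and 0.40. All 7 measured stellate and fibroblast markers, of 8 listed, had higher values, from Acta2 at 0.08 to Col3a1 at 1.04, with sums of 2721 and 3709. Endothelial markers ranged from -0.07 (Esam) to 0.22 (Emcn) and ductal markers from -0.68 (Muc1) to 0.53 (Spp1), with 8 and 6 of 8 listed genes measured. Erythroid markers were lower in 4 of 5 measured genes, from Alas2 at -0.56 to Slc4a1 at 0.01. Of 8 lymphocyte markers 4 were measured, from Cd79b at -0.15 to Cd4 at 0.02, and of 6 adipocyte markers only Fabp4 was, at -0.45. The part of these cell types in the sulfide enzyme values was not tested.

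**Figure D5:**
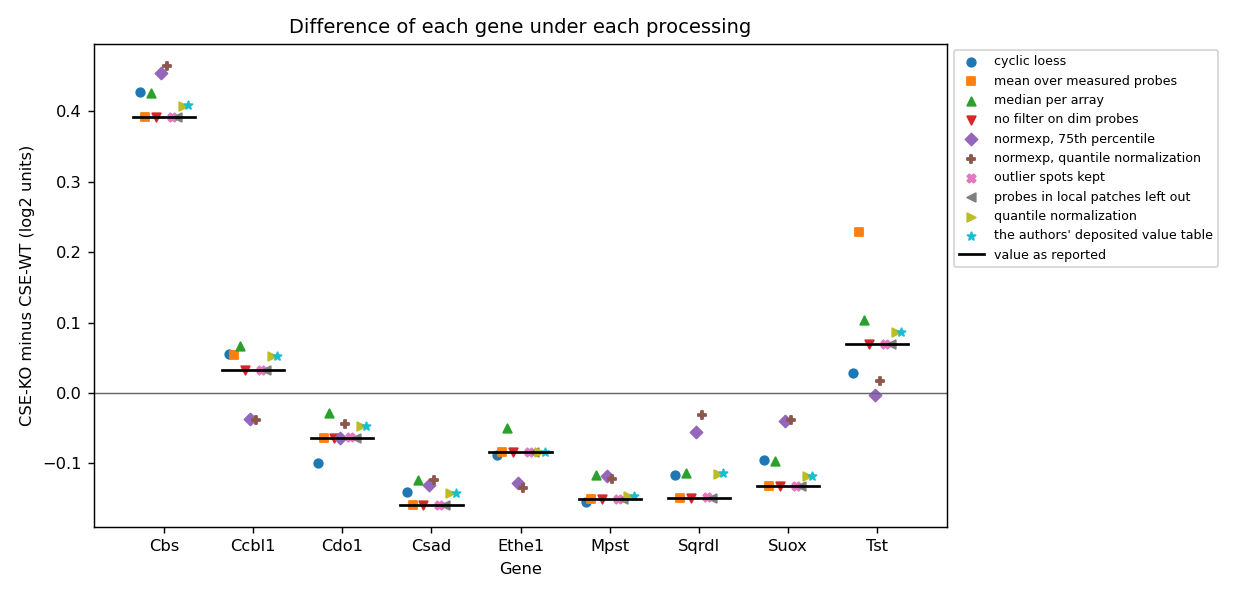
Difference of each of the 9 measured sulfide enzymes (log2 units) as reported (black line) and under 10 other processing settings (symbols). Cbs keeps a value between 0.39 and 0.46, while Ccbl1 crosses 0 under both normexp settings and Tst under normexp with 75th-percentile scaling.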

How the data were processed

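Total RNA was Cy3-labelled and hybridised to 2 arrays on 1 slide, read in 1 scan. Per the file headers, intensities came from Agilent Feature Extraction 10.7.1.1, with spatial detrending and division by a fitted surface, and without subtraction of the local background. Version 9.5.1.1 is the one in the submitters' processing notes. The authors' deposited table of intensities, on a linear scale, had columns of equal median (37.7 units) that correlated at 0.9999 with the log2 signals of the same arrays, over probes. The steps behind it are unknown.

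Outlier spots were left out (139 and 169 gene spots on the CSE-WT and CSE-KO arrays), log2 signals were averaged per probe, and the 75th percentile was subtracted. No gene spot was saturated. Genes are named as in the files, and each took the value of the measured probe that was brightest on average. The 10 genes matched RefSeq (GRCm38.p6 table) by accession. With 1 array per genotype no test was run, and a size rule of 2-fold (1 log2 unit) was used. The number of arrays limits the precision. Local patches were spots whose 8 neighbours differed by a median of at least 0.6 log2 units. The genes named were every member and, in each list, the highest and lowest measured gene and any past 2-fold. Mat1a, Mat2a, Mat2b, Mtrr, Bhmt2, Ggt7, Slc7a11, Slc3a2 and Dpep1 were added after their values were seen. So were Slc6a6, Cars, Cars2, Apoa1, Apoh, Serpina1a, Ttr and Itgam. Members and lists were chosen with earlier results of these data known. Alternatives covered the scaling, the background correction, the deposited table, the filter on dim probes, the choice of probe, outlier spots and local patches. Python 3.11.15, pandas 2.3.3, R 4.3.3 and limma 3.58.1 were used. The 2-fold rule and the spot SD were tested on simulated data with 1 probe per gene. The scaling, the filters, the choice of probe and the background correction were not tested in that way.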

Additional observations from a re-analysis of the deposited data

How the results depend on the processing

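No paired analysis was possible because each genotype had 1 array. No measured sulfide enzyme reached 2-fold in either direction under the scaling, background, probe, outlier and patch settings tried or at a 1.5-fold size rule. Without the filter on dim probes 1 did, Cth, lower in CSE-KO and not well above background on either array. Among the pathway lists 1 gene was then higher (Dpep1) and 1 lower (Bhmt2). The counts of all genes past 2-fold, 159 higher and 196 lower, became 36 and 98 with normexp correction, 38 and 96 with normexp and quantile normalization (added after the data were seen), and 1128 and 1437 without the filter. Lower genes numbered 122 without probes in patches, and a 1.5-fold rule (also added later) gave 686 higher and 555 lower. Higher genes made up 44.8% of the calls, 26.9% and 28.4% under the normexp settings, and 56.3% without patches. The median difference of the enzymes lay within 1 spot SD of its reported value in each setting. Cbs moved to 0.46 under each normexp setting, and Ccbl1, Sqrdl and Suox also moved by over 1 spot SD there. All single values rest on 1 array per genotype.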
